A study of Mus musculus with 17 samples.

Results

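Hippocampal RNA of mice that carry the Dp(16)1Yey duplication with normalized interferon receptor dosage (Dp16_2xIFNRs, 5 mice, 3 females and 2 males, 17.7 to 18.0 weeks old) was compared with that of mice carrying the duplication alone (Dp16, 6 mice, 3 females and 3 males, 17.1 to 18.0 weeks old). These 11 mice were taken by their labelled genotype from a series of 17, whose other 6 were wild type C57BL/6J mice (WT, 3 females and 3 males, 17.1 to 18.0 weeks old). Both compared groups carry the duplicated segment of chromosome 16, a mouse model of Down syndrome, and they differ by label in the copies of the interferon receptor genes that lie in it. The labels do not say how the dosage was normalized, nor from which age or in which cells. Each library was made from polyadenylated RNA of 1 mouse, and the common coefficient of variation between mice was 14.1%.

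Type I interferons bind a receptor of the chains IFNAR1 and IFNAR2, and interferon gamma binds a receptor of IFNGR1 and IFNGR2. Both receptors act through JAK kinases and STAT transcription factors, which switch on antiviral genes, immune GTPases and antigen presentation genes. IL10RB serves as second chain for interleukin 10 and for type III interferons. In the brain, microglia, endothelial cells, astrocytes and neurons can all respond to interferons, and the basal activity of the pathway is low.

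The receptor genes were lower in Dp16_2xIFNRs mice and no other tested gene passed. Across 18983 tested genes, edgeR called 3 genes at an adjusted p under 0.05, which is 0.0158%, and all 3 were lower in Dp16_2xIFNRs than in Dp16 mice. They were Ifngr2, Ifnar1 and Ifnar2. Il10rb, the fourth chain of the cluster, was lower by a similar amount and missed the threshold. The 4 genes lie side by side on the plus strand at chr16:91372783-91565623 (GRCm38), a stretch of 192.8 kb.

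Ifngr2, the signalling chain of the interferon gamma receptor, stood at 52.1, 49.3, 50.5, 52.1 and 54.6 CPM (the gene's counts as a share of the scaled library total) in the 5 Dp16_2xIFNRs mice, against a lowest value of 71.8, a median of 82.6 and a highest value of 94.1 CPM in the 6 Dp16 mice. In the 6 WT mice it ran between 44.6 and 57.1 CPM. All Dp16_2xIFNRs mice lay below all Dp16 mice and inside the WT range. The log2 fold change was -0.68 ± 0.07 (SE; edgeR adjusted p = 0.000136).

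Ifnar1, the larger chain of the type I receptor, stood at 46.5, 46.8, 42.8, 48.5 and 46.4 CPM in Dp16_2xIFNRs mice, against 61.6, 64.2 and 68.5 CPM (lowest, median, highest) in Dp16 mice. In WT mice it ran between 39.1 and 48.3 CPM, and the upper end of that range was a single mouse. The groups did not overlap, and the log2 fold change was -0.49 ± 0.06 (SE; edgeR adjusted p = 0.000841). Ifnar2, its partner chain, stood at 18.8, 19.0, 17.1, 18.2 and 15.5 CPM in Dp16_2xIFNRs mice, against 24, 28.3 and 28.9 CPM (lowest, median, highest) in Dp16 mice. Again the groups did not overlap, and the log2 fold change was -0.63 ± 0.08 (SE; edgeR adjusted p = 0.00329). This call ended when the first digit of the second part of the mouse identifier was added to the model (log2 fold change -0.60; edgeR adjusted p = 0.0753), and when the share of counts in long noncoding and unclassified transcripts was added (log2 fold change -0.58; edgeR adjusted p = 0.0842). The fold changes in both settings were close to the value without them.

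Il10rb stood at 8.28, 7.5, 8.41, 8.61 and 7.09 CPM in Dp16_2xIFNRs mice, against 8.47, 12.2 and 13.1 CPM (lowest, median, highest) in Dp16 mice. The overlap came from 1 library, Dp16 replicate 6, while the other 5 Dp16 mice were at 11.6 CPM or more. Of the Dp16 libraries, replicate 6 also held the least choroid plexus RNA. The log2 fold change was -0.56 ± 0.11 (SE; unadjusted p = 7.07e-05), short of the threshold (edgeR adjusted p = 0.278). Without Dp16 replicate 6 it was -0.64 and passed (edgeR adjusted p = 0.00593). With the choroid plexus level in the model it was -0.56 and passed (edgeR adjusted p = 0.00379), and DESeq2 also called it (DESeq2 adjusted p = 0.00491). Over 35 alternative settings the gene was called in 6, with adjusted p values between 0.00379 and 1, while Ifngr2 and Ifnar1 were called in all 35.

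**Figure D1:**
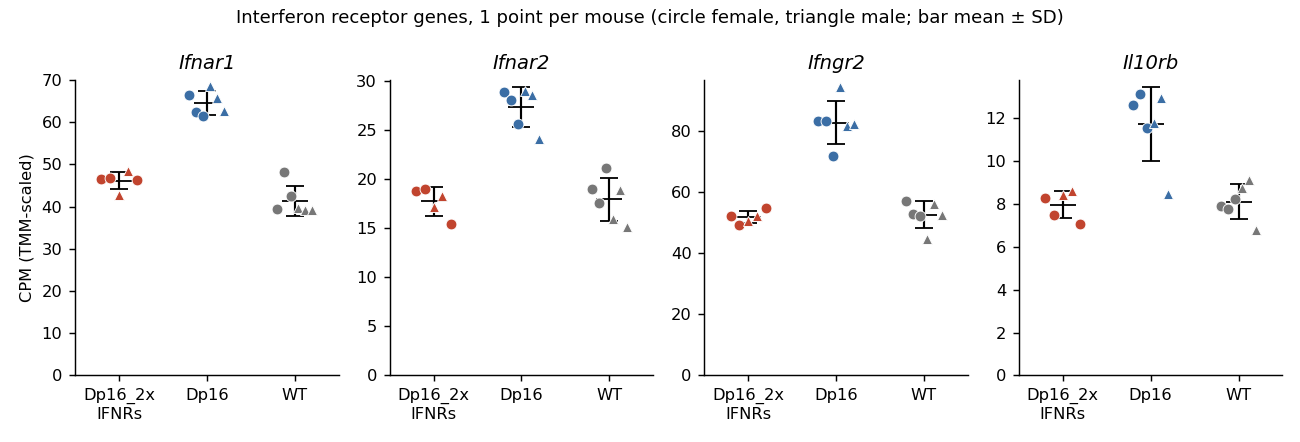
CPM of the 4 receptor genes (vertical axis) in each mouse, by genotype (horizontal axis, Dp16_2xIFNRs, Dp16, WT); circles are females, triangles are males, and bars give the mean and SD. For Ifnar1, Ifnar2 and Ifngr2 all 5 Dp16_2xIFNRs mice lie below all 6 Dp16 mice, and for Il10rb 1 Dp16 mouse, at 8.47 CPM, lies among them.

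Normal dosage means 2 copies where the duplication gives 3, a ratio of 0.667. The ratios of Dp16_2xIFNRs to Dp16 expression were 0.626 for Ifngr2 (95% interval 0.568 to 0.690), 0.644 for Ifnar2 (0.571 to 0.728), 0.679 for Il10rb (0.580 to 0.795) and 0.713 for Ifnar1 (0.656 to 0.774). Each interval contained the copy ratio. Tested against that ratio in edgeR, none of the receptor genes departed from it, also at an unadjusted p under 0.05 (lowest edgeR adjusted p = 0.377, adjusted over the receptor genes alone). The intervals still hold departures of some size. On the log2 scale the departure of Ifnar1 ran between -0.02 and 0.22 and that of Il10rb between -0.20 and 0.25.

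The lower level was present in both sexes. Log2 fold changes in females and in males were -0.61 and -0.74 for Ifngr2, -0.45 and -0.52 for Ifnar1, -0.63 and -0.62 for Ifnar2, and -0.71 and -0.38 for Il10rb. The interaction of genotype with sex was not called for any of the 18983 genes in edgeR (0 genes), with 534 genes at an unadjusted p under 0.05, or 2.81%. Only 2 of the 5 Dp16_2xIFNRs mice were male.

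The partner chains that lie outside the segment had no detectable difference. Ifngr1, the ligand-binding chain of the interferon gamma receptor on chromosome 10, stood at 15.1, 15.1, 13.6, 13.9 and 14.6 CPM in Dp16_2xIFNRs mice, within the 13.7 to 16.2 CPM of Dp16 mice but for 1 value (log2 fold change -0.08, 95% interval -0.23 to 0.06; edgeR adjusted p = 0.657). Il10ra, which pairs with IL10RB to bind interleukin 10, had 0.06 (95% interval -0.28 to 0.41; edgeR adjusted p = 0.904). Ifnlr1, its partner for type III interferons, was counted at 0.356 CPM on average, too low for a narrow interval (-1.14 to 1.09).

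The cluster between the start of Ifnar2 and the end of Ifngr2 holds 12 annotated genes, of which 5 passed the filter on low counts and 7 had at most 3 counts in any library. One of those 7, Gm21970, runs over parts of Ifnar2 and Il10rb and had 0 counts, and reads that fit several genes may have gone uncounted. The tested gene beside the receptors was A930006K02Rik, a long noncoding RNA at chr16:91465025-91470128, between Il10rb and Ifnar1. It had 0.323, 0.630, 0.635, 0.540 and 0.353 CPM in Dp16_2xIFNRs mice, against 0.571, 0.812 and 1.36 CPM (lowest, median, highest) in Dp16 mice. The ranges overlapped slightly and the log2 fold change of -0.85 ± 0.33 (SE; unadjusted p = 0.0177) did not pass (edgeR adjusted p = 0.438). Its counts summed to 78 over the 5 Dp16_2xIFNRs libraries, 171 over the 6 Dp16 libraries and 137 over the 6 WT libraries.

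No gene beside the cluster was called against Dp16 mice, and Tmem50b and Gart, at higher positions, also stood apart from WT mice. Tmem50b, the next gene at higher positions, which encodes a membrane protein, stood at 144, 112, 130, 130 and 144 CPM in Dp16_2xIFNRs mice, against 131, 140 and 160 CPM (lowest, median, highest) in Dp16 mice and 84.5 to 101 CPM in WT mice. All Dp16_2xIFNRs mice lay above the WT range, and the log2 fold change against Dp16 was -0.09 (95% interval -0.23 to 0.05; edgeR adjusted p = 0.607). Gart, an enzyme of purine synthesis, stood at 52.0, 42.6, 47.1, 44.8 and 55.4 CPM in Dp16_2xIFNRs mice, against 46.6, 49.7 and 52.7 CPM (lowest, median, highest) in Dp16 mice and at most 33.5 CPM in WT mice (log2 fold change against Dp16 -0.04, 95% interval -0.17 to 0.09; edgeR adjusted p = 0.820). At lower positions Olig1, a transcription factor of the oligodendrocyte lineage, had a value of -0.11 on that scale (edgeR adjusted p = 0.650), and its paralog Olig2 had 0.07 (edgeR adjusted p = 0.874). Relative to WT, Olig1 stood at 0.24 in Dp16_2xIFNRs and 0.35 in Dp16 mice, and Olig2 at 0.37 and 0.30. Neither was called against WT in either group (lowest edgeR adjusted p = 0.0863). Gm15966, the nearest gene at lower positions with at least 1 CPM, had -0.29 against Dp16 (95% interval -0.79 to 0.20, edgeR adjusted p = 0.651). In Dp16 against WT it had only 0.07.

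Some neighbours stood higher without passing the test. Son, an RNA-binding splicing cofactor, stood at 392, 646, 555, 542 and 434 CPM in Dp16_2xIFNRs mice, against 366, 407 and 515 CPM (lowest, median, highest) in Dp16 mice (log2 fold change 0.30; unadjusted p = 0.0142, edgeR adjusted p = 0.433). Paxbp1, at lower positions, stood at 46.4, 92.8, 84.8, 75.4 and 54.9 CPM in Dp16_2xIFNRs mice, against 41.3, 48.6 and 72.0 CPM (lowest, median, highest) in Dp16 mice (log2 fold change 0.47; unadjusted p = 0.0171, edgeR adjusted p = 0.438). In both genes Dp16_2xIFNRs replicates 2, 3 and 4 were high, replicates 1 and 5 lay among the Dp16 mice, and the highest Dp16 mouse was replicate 3. Within their groups, the same libraries had the largest shares of counts in long noncoding RNA genes and in TEC genes, which are transcribed regions that the annotation has yet to classify. That share was 2.29, 2.05 and 2.02% in Dp16_2xIFNRs replicates 2, 3 and 4, 1.79 and 1.86% in replicates 1 and 5, and 2.03% in Dp16 replicate 3, against 1.58 to 1.81% in the other Dp16 mice. With this share in the model the log2 fold changes were 0.06 for Son and 0.05 for Paxbp1. The share itself was higher in Dp16_2xIFNRs mice (median 2.02%, against 1.75% in Dp16 mice), so a model that holds it also takes up part of any genotype difference that runs along with it, here and wherever it is used below.

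Over the whole segment, 118 genes beside the receptors were tested and edgeR called 0 of them. At an unadjusted p under 0.05 there were 8 higher and 7 lower genes (6.99% and 3.48% of all tested genes were higher and lower by that rule), and DESeq2 and limma-voom also called 0. Their median log2 fold change was -0.02, beside -0.01 over all tested genes, and for 79 of the 118 genes the 95% interval lay within 1.5-fold either way. Among genes with at least 1 CPM the lowest values were those of 2810407A14Rik with -0.51, Ripk4, a kinase of epithelial differentiation, with -0.44 and Gm9843 with -0.40. The highest were those of C130023A14Rik with 1.09, Setd4, a methyltransferase, with 0.55 and Gm37694 with 0.51. None of these 6 passed (lowest edgeR adjusted p = 0.433).

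Several well-known genes of the segment, chosen with their values in view, are given for their narrow intervals. App, the amyloid precursor protein, had a log2 fold change of -0.07 (95% interval -0.17 to 0.03). Dyrk1a, a protein kinase, had -0.06 (-0.15 to 0.03), and Sod1, the cytosolic superoxide dismutase, had -0.05 (-0.18 to 0.08). Rcan1, an inhibitor of calcineurin, had -0.14 (-0.26 to -0.01; unadjusted p = 0.0297, edgeR adjusted p = 0.444). None of them was called.

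**Figure D2:**
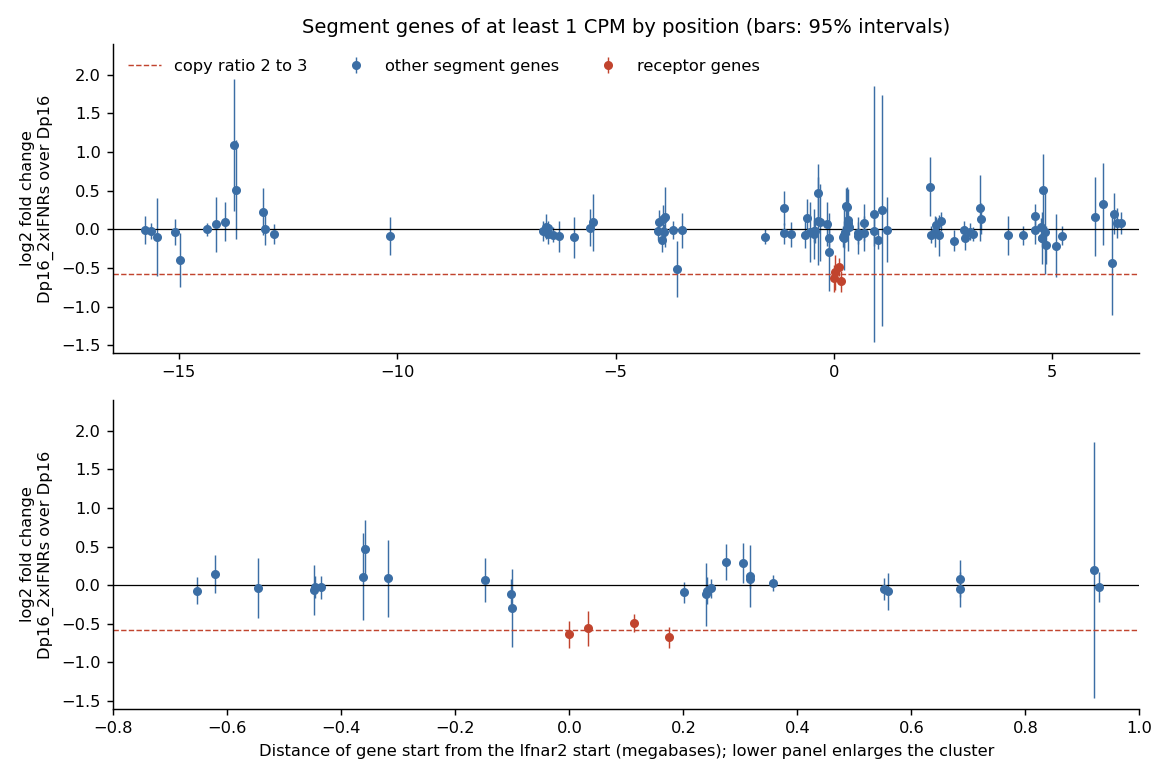
Log2 fold change of Dp16_2xIFNRs over Dp16 (vertical axis) for the segment genes with at least 1 CPM, by the distance of the gene start from that of Ifnar2 in megabases (horizontal axis); points are genes, bars are 95% intervals, and the dashed line marks the copy ratio of 2 to 3. The 4 receptor genes (red) lie at -0.49 to -0.68, and the other genes (blue) have a median of -0.02. The nearest genes at higher positions show no step down. At lower positions the interval of the nearest gene, Gm15966 (-0.79 to 0.20), holds both 0 and the copy ratio, so a step at that gene cannot be told.

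Outside the segment, edgeR called 0 of 18861 genes. At an unadjusted p under 0.05 there were 1318 higher and 649 lower genes (10.5% of all tested genes passed that rule). Limma-voom called 0 and DESeq2 called 2, the predicted genes Gm16378 and Gm28322. Without a filter on low counts edgeR called 10, among them the matrix genes Tnxb and Col11a1, the mucin gene Muc3a and Traip, a ubiquitin ligase, and 6 with predicted names. Over all tested genes, 13307 (70.1%) had a 95% interval within 1.5-fold either way, and the remaining genes had wider intervals that reach past that size.

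Single mice were also set side by side. In 117 genes (0.616%) the 2 groups did not overlap, with every Dp16_2xIFNRs mouse lower in 68 genes (0.358%) and higher in 49 (0.258%). Among them, Ifngr2, Ifnar1 and Ifnar2 were the 3 that passed the test. In bulk RNA, fewer cells of a type and less RNA per cell cannot be told apart.

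**Figure D3:**
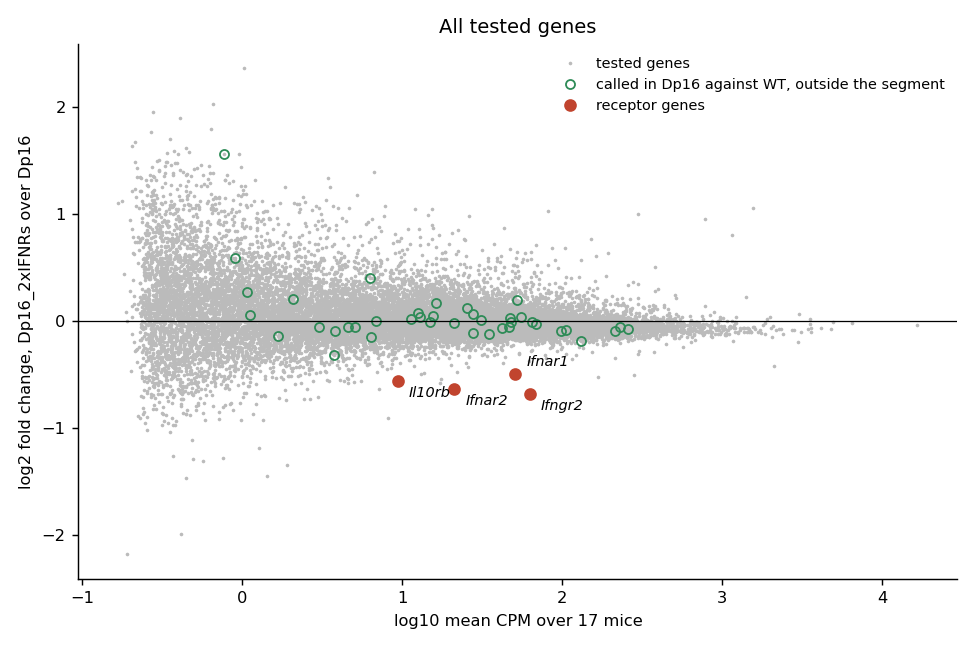
Log2 fold change of Dp16_2xIFNRs over Dp16 (vertical axis) against the log10 of the mean CPM over the 17 mice (horizontal axis), 1 point per tested gene; receptor genes are red, and green rings mark the 40 genes outside the segment called in Dp16 against WT. The receptors lie at the lower edge of the cloud at their expression level, and most rings lie near 0 (median -0.01).

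Among the uncalled genes, those with the lowest unadjusted p and at least 1 CPM are given with their values. In the lower direction, Lgalsl, a galectin-related protein, stood at 85.7, 74.5, 80.3, 79.9 and 79.3 CPM in Dp16_2xIFNRs mice, against 87.3, 91.6 and 99.3 CPM (lowest, median, highest) in Dp16 mice, with no overlap (log2 fold change -0.20; edgeR adjusted p = 0.433). Camk2g, a calcium/calmodulin-dependent kinase subunit, stood at 200, 191, 180, 198 and 191 CPM in Dp16_2xIFNRs mice, against 205, 213 and 219 CPM (lowest, median, highest) in Dp16 mice, also with no overlap (log2 fold change -0.15; edgeR adjusted p = 0.433). The others were Art3 (-0.39), Med18 (-0.48), Chrdl1 (-0.50), Zdhhc7 (-0.19), Metrnl (-0.47), Nup62 (-0.24), N4bp3 (-0.34) and Mlph (-0.72), each at the same adjusted p, since Benjamini-Hochberg adjustment ties neighbouring ranks.

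In the higher direction, Qtrt2, a subunit of the enzyme that places queuine in transfer RNA, stood at 14.9, 22.2, 19.3, 18.6 and 15.5 CPM in Dp16_2xIFNRs mice, against 12.1, 12.7 and 15.8 CPM (lowest, median, highest) in Dp16 mice (log2 fold change 0.46; edgeR adjusted p = 0.433). Tnxb, the matrix protein tenascin X, stood at 18.9, 32.9, 28, 23.4 and 19.9 CPM in Dp16_2xIFNRs mice, against 13.7, 16.2 and 19.6 CPM (lowest, median, highest) in Dp16 mice (log2 fold change 0.58; edgeR adjusted p = 0.433). Both genes were highest in Dp16_2xIFNRs replicates 2, 3 and 4 and, among Dp16 mice, in replicate 3, the libraries named above for their share of noncoding and unclassified transcripts. With that share in the model the log2 fold changes were 0.27 for Qtrt2 and 0.29 for Tnxb. The others in this direction were Fbn2 (0.56), Adam8 (1.00), Fancg (0.45), Muc3a (1.06), Hdac10 (0.45), Slc26a10 (0.39), Wrn (0.30) and Cpsf1 (0.25).

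TEC genes as a class leaned to higher values. Of the 610 tested TEC genes 434 lay above 0 (median log2 fold change 0.31), beside 0.03 for 2555 long noncoding RNA genes and -0.01 for 15165 protein-coding genes. None of the TEC or long noncoding genes was called by edgeR, with 138 TEC genes higher and 7 lower, and 199 long noncoding genes higher and 67 lower, at an unadjusted p under 0.05. Over all tested genes, 6.99% were higher and 3.48% lower by that rule. With the share of these transcripts, which is computed from the same counts, in the model, the number of genes at an unadjusted p under 0.05 was 523, of which 244 were higher, against 1986 without it, of which 1326 were higher. The share was 1.79 to 2.29% in Dp16_2xIFNRs mice, 1.58 to 2.03% in Dp16 mice and 1.63 to 2.06% in WT mice.

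The next comparison asked whether the genes that respond to interferons differed with the dosage of their receptors. Genes classically induced by type I interferon had a median at that of all genes. Of 60 listed genes 57 were tested, and the 56 outside the segment had -0.01 as their median log2 fold change (interquartile range -0.07 to 0.11), with 26 higher and 30 lower, against 47.9% of all tested genes higher. EdgeR called 0 of the 56, with 4 higher and 0 lower at an unadjusted p under 0.05, and 37 had a 95% interval within 1.5-fold either way. Over all tested genes, 6.99% were higher and 3.48% lower at that unadjusted p. These shares stand beside each such list count below, and the 47.9% beside each count of higher members. Their medians were 0.23 in Dp16 against WT and 0.25 in Dp16_2xIFNRs against WT, comparisons that share mice with the one described here.

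The interferon-stimulated response element is a promoter site bound by STAT and IRF factors. Its core letters GAAANNGAAA, searched on both strands in the 250 bases before the gene start, were found in 13 of the 44 type I genes with a promoter sequence (29.5%), in 11 of 23 interferon gamma genes (47.8%) and in 3.46% of the 27025 promoters in the table. To show what these sites look like, 60-base windows around the match are given for the 4 genes of each list with the highest expression per length among those with a match. The sequences are from RefSeq (GRCm38.p6), 5′ to 3′ on the strand of the gene, and capitals mark the GAAA repeats of the match, or TTTC where the match lies on the other strand.
Ifitm2: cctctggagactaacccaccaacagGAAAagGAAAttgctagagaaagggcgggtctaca
Bst2: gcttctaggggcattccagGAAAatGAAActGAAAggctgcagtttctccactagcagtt
Stat2: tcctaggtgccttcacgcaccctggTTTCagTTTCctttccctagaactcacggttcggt
Ifit3: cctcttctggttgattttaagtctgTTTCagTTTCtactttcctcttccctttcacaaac
Irgm1: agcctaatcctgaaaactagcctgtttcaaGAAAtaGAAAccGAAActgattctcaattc
Igtp: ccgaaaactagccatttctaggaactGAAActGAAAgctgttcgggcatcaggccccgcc
Gbp3: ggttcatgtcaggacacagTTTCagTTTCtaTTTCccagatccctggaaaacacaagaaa
Gbp2: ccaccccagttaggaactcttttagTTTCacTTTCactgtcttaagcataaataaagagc

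The windows lie at chr7:140955973-140956032 (Ifitm2, minus strand), chr8:71537562-71537621 (Bst2, minus), chr10:128270251-128270310 (Stat2, plus), chr19:34583382-34583441 (Ifit3, plus), chr11:48871421-48871480 (Irgm1, minus), chr11:58199496-58199555 (Igtp, plus), chr3:142559980-142560039 (Gbp3, plus) and chr3:142620579-142620638 (Gbp2, plus). Bst2, Irgm1 and Gbp3 hold overlapping matches, with 3 repeats in a row. A match is a description of letters and not a measured binding site. Over the 404 tested genes outside the segment that hold the core letters, the median log2 fold change was 0.00, beside -0.01 for the 12594 without them, and edgeR called 0 of the 404.

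Bst2, the antiviral tether known as tetherin, stood at 12.7, 6.14, 7.78, 5.94 and 5.61 CPM in Dp16_2xIFNRs mice, against 4.86, 7.97 and 13.8 CPM (lowest, median, highest) in Dp16 mice (log2 fold change -0.13; edgeR adjusted p = 0.855). Ifit3, an antiviral adaptor, stood at 14.5, 8.09, 6.70, 6.23 and 14.3 CPM in Dp16_2xIFNRs mice, against 7.5, 7.95 and 15.1 CPM (lowest, median, highest) in Dp16 mice (log2 fold change 0.00, 95% interval -0.48 to 0.48; edgeR adjusted p = 0.999). In both genes single mice of each group stood at about the same high level, and the groups overlapped over most of their range. Isg15, a ubiquitin-like protein, had a log2 fold change of 0.01 (95% interval -0.55 to 0.58), and Irf7, the factor that amplifies the type I response, had -0.08 (-0.55 to 0.40). The spread between mice left intervals of about 0.5 either way for Ifit3, Isg15 and Irf7.

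The list's members with the most RNA per length had values near 0, though not all of them had narrow intervals. Adar, the RNA-editing deaminase, had a log2 fold change of -0.01 (95% interval -0.13 to 0.10), and Shisa5, an endoplasmic reticulum protein, had -0.02. Ifi27, a mitochondrial interferon-induced protein, had -0.03 (-0.36 to 0.31), and Ifitm3, a membrane protein that blocks viral entry, had 0.08 (-0.33 to 0.50). The lowest unadjusted p values belonged to Pnpt1, a mitochondrial RNA exonuclease, with 0.31 (unadjusted p = 0.00524), Stat2 with 0.19 (0.0317), Ifit1, an antiviral RNA binder, with 0.45 (0.0318) and Parp12 with 0.23 (0.0437). All 4 were higher in Dp16_2xIFNRs mice, as were 6.99% of all tested genes at an unadjusted p under 0.05. None of the 4 passed (edgeR adjusted p = 0.433 to 0.467). Stat2 stood at 25.5, 28.8, 29.1, 28.7 and 29.3 CPM in Dp16_2xIFNRs mice, against 22.1, 24.3 and 29.2 CPM (lowest, median, highest) in Dp16 mice, and the groups overlapped. Of the Dp16 mice, replicate 3 stood at the level of the high Dp16_2xIFNRs mice and replicate 6, at 26.2 CPM, above the lowest of them. With the noncoding share in the model the log2 fold changes were 0.10 for Stat2 and 0.14 for Pnpt1.

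Most listed genes of the interferon gamma response stood slightly higher in Dp16_2xIFNRs mice, and none passed the test. Of 35 listed genes 34 were tested, with a median log2 fold change of 0.21 (interquartile range 0.09 to 0.44), 31 higher and 3 lower. By comparison, 47.9% of all tested genes were higher. Outside the segment 9035 of 18861 tested genes were higher, and 6936 of 15515 with a mean of at least 1 CPM, so genes under 1 CPM leaned higher. A share for genes at the level of this list was not computed. EdgeR called 0 of the 34, and neither DESeq2 nor limma-voom called any, with 4 higher and 0 lower in edgeR at an unadjusted p under 0.05. Over all tested genes, 6.99% were higher and 3.48% lower by that rule. The median was between 0.16 and 0.25 when each library was left out in turn. The medians of the same genes were 0.19 in Dp16 against WT and 0.40 in Dp16_2xIFNRs against WT.

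Per mouse, the mean log2 level of the list relative to the Dp16 mean was 0.50, 0.17, 0.33, 0.19 and 0.13 in Dp16_2xIFNRs mice, and between -0.39 and 0.37 in Dp16 mice. The Dp16_2xIFNRs mice were all above the Dp16 mean, and the groups overlapped, since 1 Dp16 mouse (replicate 2) stood above 4 of them. Gbp5, a guanylate-binding GTPase, stood at 4.43, 3.37, 4.09, 3.84 and 3.95 CPM in Dp16_2xIFNRs mice, against 2.11, 2.80 and 2.95 CPM (lowest, median, highest) in Dp16 mice. The groups did not overlap, and the log2 fold change of 0.56 ± 0.19 (SE; unadjusted p = 0.00793) did not pass (edgeR adjusted p = 0.433). Nlrc5, the transactivator of MHC class I genes, stood at 2.36, 2.05, 1.71, 1.94 and 1.73 CPM in Dp16_2xIFNRs mice, against 0.673, 1.47 and 1.61 CPM (lowest, median, highest) in Dp16 mice, also without overlap (log2 fold change 0.60 ± 0.22; edgeR adjusted p = 0.433). With the noncoding share in the model these values were 0.63 for Gbp5 and 0.72 for Nlrc5.

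Irgm1, an immunity-related GTPase whose promoter window is printed above, had a log2 fold change of 0.27 (unadjusted p = 0.034, edgeR adjusted p = 0.452), and Gbp8 had 0.78 (unadjusted p = 0.0401, edgeR adjusted p = 0.463) at 0.312 CPM. Members with more RNA per length were closer to 0. The proteasome activator subunits Psme1 and Psme2 had -0.01 and 0.09, the immunoproteasome subunit Psmb10 had -0.16 and the peptide-loading factor Tapbp had 0.01. Members of the Gbp family are near-identical in places, so reads can be split between them and single Gbp values are less certain.

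No gene of the signalling chain between receptor and target genes passed the test. Of 18 listed genes, 11 were higher and 7 lower (median 0.07), with 3 higher and 0 lower at an unadjusted p under 0.05 in edgeR. Over all tested genes, 6.99% were higher and 3.48% lower by that rule. Stat2, given above, is 1 of these 3 and is also in the type I list. Ptpn2, a phosphatase that turns off JAK and STAT proteins, stood at 19.5, 21.0, 21.2, 22 and 20.3 CPM in Dp16_2xIFNRs mice, against 16.2, 18.3 and 19.3 CPM (lowest, median, highest) in Dp16 mice, just without overlap (log2 fold change 0.20; unadjusted p = 0.0073, edgeR adjusted p = 0.433). Tyk2, a kinase bound to IFNAR1, had 0.32 (unadjusted p = 0.0287, edgeR adjusted p = 0.444), and 0.04 with the noncoding share in the model. Jak1, the kinase shared by both receptors and the list's gene with the most RNA, had -0.05 (edgeR adjusted p = 0.735). Genes that sense nucleic acids had a median of 0.04, with 12 of 19 higher and 0 called, and targets of interleukin 10 and STAT3 had a median of 0.04, with 8 of 14 higher and 0 called.

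**Figure D4:**
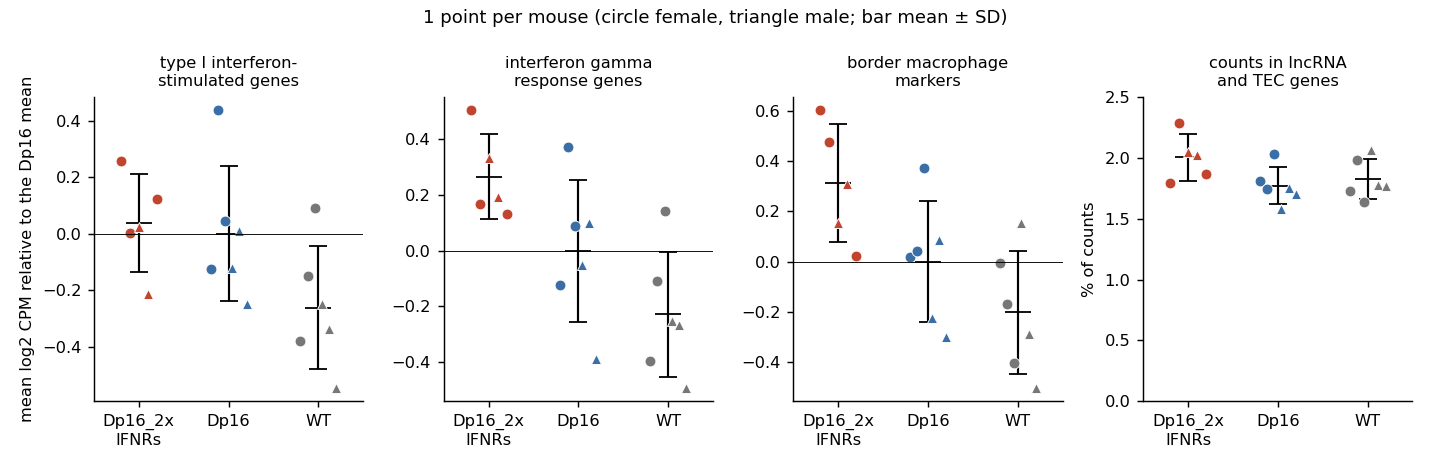
Mean log2 CPM of 3 gene lists relative to the Dp16 mean, and the percentage of counts in long noncoding and TEC genes (vertical axes), in each mouse by genotype (horizontal axis, Dp16_2xIFNRs, Dp16, WT); circles are females, triangles males, and bars the mean and SD. The type I list overlaps fully between Dp16_2xIFNRs and Dp16 mice, and the interferon gamma list runs between 0.13 and 0.50 in Dp16_2xIFNRs mice and between -0.39 and 0.37 in Dp16 mice.

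Antigen presentation genes mostly stood on the same side, in lists that share members with the interferon gamma list. Among the shared genes are Nlrc5, Psmb10 and Tapbp for MHC class I and Cd74 for MHC class II. The values below are thus in part those of the same genes. Of the MHC class I and peptide-loading genes 15 of 19 were higher (median log2 fold change 0.09), and of the MHC class II genes 8 of 10 (median 0.25). Among all tested genes 47.9% were higher. Without Dp16_2xIFNRs replicate 5 the MHC class II median was 0.43, and the lowest median with a library left out was 0.18, without Dp16 replicate 6. For MHC class I these medians ran between 0.02, without Dp16_2xIFNRs replicate 3, and 0.13. EdgeR called 0 in either list, with 1 and 0 genes at an unadjusted p under 0.05. B2m, the light chain of MHC class I, had a log2 fold change of 0.02 (95% interval -0.18 to 0.23). Cd74, the invariant chain of MHC class II, stood at 22.4, 13.8, 16.4, 12.9 and 6.06 CPM in Dp16_2xIFNRs mice, against 3.90, 10.7 and 13.1 CPM (lowest, median, highest) in Dp16 mice (log2 fold change 0.56, 95% interval -0.08 to 1.2; edgeR adjusted p = 0.523). The lowest mouse of each group, Dp16_2xIFNRs replicate 5 and Dp16 replicate 6, was also the one with least choroid plexus RNA.

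Markers of cells at the borders of the brain also stood higher. Of 11 tested markers of border macrophages 10 were higher (median 0.35), against 47.9% of all tested genes. EdgeR called 0 of these markers, with 3 higher at an unadjusted p under 0.05. Their summed level was 45.0 to 60.4 CPM in Dp16_2xIFNRs mice and 38.1 to 55.1 CPM in Dp16 mice. Mrc1, the mannose receptor of these macrophages, had a log2 fold change of 0.35 (unadjusted p = 0.0403, edgeR adjusted p = 0.463). Markers of meningeal and perivascular fibroblasts had a median of 0.26, with 19 of 20 higher, 0 called, 0 higher and 1 lower at an unadjusted p under 0.05, and a summed level of 898 to 1409 CPM in Dp16_2xIFNRs mice and 577 to 1268 CPM in Dp16 mice. None of the defining markers Mrc1, Cd163 and Col1a1 was at 0 in the tested table. Without Dp16 replicate 6 the fibroblast median was 0.13, and without Dp16_2xIFNRs replicate 1 it was 0.18. Choroid plexus markers had a median of 0.22, with 20 of 21 higher, 0 called and 0 at an unadjusted p under 0.05. None of their intervals lay within 1.5-fold either way. That median was -0.03 without Dp16 replicate 6 and 0.53 without Dp16_2xIFNRs replicate 5, the libraries of their groups with least choroid plexus RNA. With the noncoding share in the model the medians were 0.13 for border macrophages, 0.09 for fibroblasts and 0.25 for interferon gamma genes. The part of these cells in the interferon gamma and MHC class II values was not tested.

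The parenchymal cells of the hippocampus showed small and even values. Of the homeostatic microglia markers 7 of 23 were higher (median log2 fold change -0.05), and all 23 intervals lay within 1.5-fold either way. Astrocyte markers had -0.09 with 2 of 24 higher, pan-neuronal genes had -0.07 with 1 of 16 higher, and markers of GABAergic interneurons had -0.09 with 8 of 35 higher. Dentate granule cell markers had 0.05 with 13 of 16 higher, and CA1 pyramidal cell markers had -0.03 with 3 of 12 higher, so the markers of the labelled tissue were present in all groups. Summed pan-neuronal levels were 9899 to 11710 CPM in Dp16_2xIFNRs mice and 10610 to 12220 CPM in Dp16 mice. In each of these 6 lists edgeR called 0 genes. Medians this close to 0 shifted with single settings: with the noncoding share in the model they were -0.01 for astrocytes, 0.0072 for pan-neuronal genes, 0.06 for homeostatic microglia and -0.05 for interneurons. Leaving out single libraries moved the CA1 median between -0.09 and 0.03, and that of dentate granule cells between 0.0065 and 0.08.

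Red blood cell genes had a median of -0.37, with 0 of 6 above 0, 0 called by edgeR and 2 lower at an unadjusted p under 0.05. That median was -0.58 without Dp16_2xIFNRs replicate 1 and -0.24 without Dp16_2xIFNRs replicate 4. The lowest p values, those of the globin genes Hba-a2 with -0.59 (unadjusted p = 0.017, edgeR adjusted p = 0.438) and Hbb-bt with -0.55 (unadjusted p = 0.0271, edgeR adjusted p = 0.444), did not pass. Globin genes have near-identical copies, so reads can be split between them. Hbb-bs stood at 34.8, 16.4, 25.6, 13.1 and 20.6 CPM in Dp16_2xIFNRs mice, against 18.3, 30.0 and 35.2 CPM (lowest, median, highest) in Dp16 mice, and the ranges overlapped. Genes of cytosolic ribosomal proteins had a median of -0.09, with 2 of 82 higher, and nuclear genes of oxidative phosphorylation had -0.07, with 1 of 67 higher. With the noncoding share in the model these medians were -0.0025 and 0.0020. EdgeR called 0 in these lists too.

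**Figure D5:**
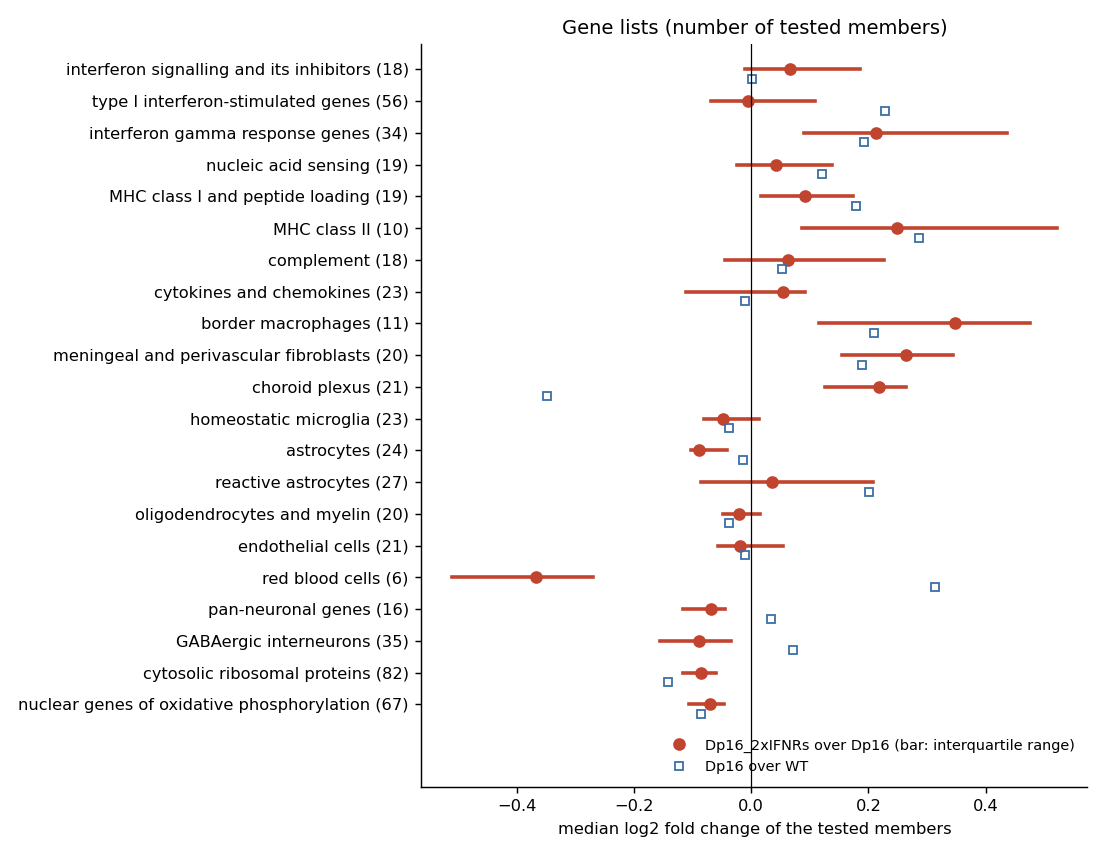
Median log2 fold change (horizontal axis) of 21 gene lists, named on the vertical axis with their number of tested members outside the segment; red points and bars give the median and interquartile range for Dp16_2xIFNRs over Dp16, and blue squares the median for Dp16 over WT. Type I interferon-stimulated genes lie at -0.01, interferon gamma response genes at 0.21 and red blood cell genes at -0.37; the 2 sets of values share the Dp16 mice.

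The last comparison asked what became of the genes outside the segment that set Dp16 apart from WT mice. In Dp16 against WT edgeR called 102 genes (0.537%), of which 40 lay outside the segment. In Dp16_2xIFNRs against Dp16 edgeR called 0 of these 40, with 2 higher and 2 lower at an unadjusted p under 0.05. DESeq2 called 1 of them, Gm28322, at 0.772 CPM, and limma-voom called 0. Their median log2 fold change was -0.01, and 33 of the 40 intervals lay within 1.5-fold either way. In Dp16_2xIFNRs against WT, 32 of the 40 were called (0.98% of all tested genes). The genes were chosen for a difference between the same Dp16 and the same WT mice, so neither count can be read against a share of all genes, and the values are given side by side only.

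C4b, a complement component made by glia that has a near-identical copy in C4a, stood at 71.6, 78.6, 60.3, 57 and 63.5 CPM in Dp16_2xIFNRs mice, against 46.5, 55.5 and 72.9 CPM (lowest, median, highest) in Dp16 mice and 28.9 to 41.8 CPM in WT mice. Every Dp16_2xIFNRs mouse lay above the WT range and within or above the Dp16 range (log2 fold change against Dp16 0.20, 95% interval -0.03 to 0.42; edgeR adjusted p = 0.523). Cbs, an enzyme of the transsulfuration pathway, stood at 16.8, 19.6, 19.7, 18.1 and 15.1 CPM in Dp16_2xIFNRs mice, against 17, 17.9 and 19.1 CPM (lowest, median, highest) in Dp16 mice and at least 26.0 CPM in WT mice (log2 fold change against Dp16 -0.02, 95% interval -0.16 to 0.13; edgeR adjusted p = 0.946). Slc5a5, the sodium-iodide symporter, stood at 34.8, 27.6, 28.9, 31.1 and 31.0 CPM in Dp16_2xIFNRs mice, against 29.6, 32.4 and 38.3 CPM (lowest, median, highest) in Dp16 mice and at most 24.2 CPM in WT mice (log2 fold change against Dp16 -0.10, 95% interval -0.30 to 0.09; edgeR adjusted p = 0.687). For all 3 genes the interval against Dp16 held 0, and for Cbs and Slc5a5 the Dp16_2xIFNRs mice lay on the Dp16 side of the whole WT range.

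Some others of the 40, chosen with their values in view, were as close. The log2 fold change against Dp16 was -0.06 for the matrix gene Tnc (95% interval -0.33 to 0.22), 0.08 for Lyz2, a lysozyme of myeloid cells (-0.19 to 0.34), 0.00 for the transcription factor Tfcp2l1 and -0.13 for the agouti gene a (-0.50 to 0.24). Tbx1, at 0.899 CPM, had a larger value of 0.59 (-0.05 to 1.23), and Gm48678 had 0.40 (-0.0044 to 0.81). Relative to WT, Tbx1 was at -0.88 in Dp16_2xIFNRs and -1.47 in Dp16 mice, thus closer to WT. Gm48678 was at 1.73 in Dp16_2xIFNRs and 1.33 in Dp16 mice, thus farther from WT. Neither passed against Dp16 (lowest edgeR adjusted p = 0.48). Of the 40, the 4 at an unadjusted p under 0.05 were Gm28322 with 1.56, Gm17322 with -0.31, Mfge8, a secreted bridge to phagocytes, with -0.18 and Dyrk1b, a protein kinase, with 0.17. In 3 of the 4 the Dp16_2xIFNRs value lay farther from WT than that of Dp16. Relative to WT, Gm28322 was at 3.31 in Dp16_2xIFNRs and 1.75 in Dp16 mice, Gm17322 at -0.89 in Dp16_2xIFNRs and -0.58 in Dp16 mice, and Mfge8 at -0.56 in Dp16_2xIFNRs and -0.38 in Dp16 mice. For Dyrk1b it lay closer, at -0.14 in Dp16_2xIFNRs and -0.32 in Dp16 mice, and none of the 4 passed (lowest edgeR adjusted p = 0.433).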

How the data were processed

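Gene counts and RPKM of 17 hippocampus libraries were deposited by the authors. The submitters' processing notes name HTSeq 0.6.1, HISAT2 2.1.0, SAMtools 1.5, FastQC 0.11.5 and bcl2fastq, and the build GRCm38. The strand setting of the counting is not given in the sources used here, so genes that overlap another gene, and antisense genes, are less certain. The authors deposited raw counts, which were used for all tests, and RPKM (scaled to gene length and library total), which was used to order genes by RNA per length and in 2 alternatives. The depth was 30.7 to 31.6 M counts per Dp16_2xIFNRs library, 30.4 to 33.1 M per Dp16 library and 30.4 to 32.9 M per WT library. None of the 40 pairs of libraries within a group agreed within sampling noise.

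In edgeR 4.0.16 (R 4.3.3), filterByExpr with a minimum count of 10 kept 18983 genes. After TMM scaling, genotype plus sex was the design of a quasi-likelihood fit over the 17 libraries, with 13 residual degrees of freedom. Genes were called at a Benjamini-Hochberg adjusted p under 0.05 over all tested genes, in the contrast of Dp16_2xIFNRs minus Dp16. The copy ratio was tested with an offset, and its p values were adjusted over the receptor genes alone. Positions came from GENCODE release 21, and the segment ran over chromosome 16 from 75540514 to 97962622. The methods were tested on simulated data.

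Named genes were the receptors and tested genes of their cluster, 6 neighbours on each side, up to 10 uncalled genes per direction by lowest p, and from each list up to 4 genes by lowest p, with up to 4 of highest RPKM for the interferon lists; clone and predicted names were passed over. Genes named outside this rule, such as Ifit3 and Bst2, were chosen with their values in view. The groups and the 45 lists were chosen with earlier results of these data known. The labels do not say whether the replicate numbers pair mice, and the main test treated the mice as unpaired. Correlations of deviations from the group means averaged 0.142 (-0.0439 to 0.24) over 5 same-number pairs of Dp16_2xIFNRs with Dp16 mice. Over 25 other pairs they averaged -0.0225 (-0.423 to 0.71). The 2 pairs sharing the second part of the identifier had -0.328 and -0.256. So few pairs cannot settle whether mice were paired. The alternatives used DESeq2 1.42.0, limma 3.58.1 (voom, and trend on RPKM plus 0.1 or 1), other scaling, filters, covariates and left-out libraries; the shares of noncoding transcripts, the length slope and the set without the 3 libraries lowest in choroid plexus were added after seeing the data. One gene of the interferon lists is not reported by name here.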

Additional observations from a re-analysis of the deposited data

Results flagged for a closer look

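Of 135 groups of values examined, 17 held a mouse far from the others of its group by Dixon's criterion, and chance alone gives about 1 in 20. Among the receptors, Ifnar1 stood at 48.3 CPM in WT replicate 2 (other WT mice 39.1 to 42.4) and Il10rb at 8.47 CPM in Dp16 replicate 6 (other Dp16 mice 11.6 to 13.1).

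Dp16 replicate 3 was high for 6 genes. It stood at 2.66 CPM for 4930404I05Rik (others 1.44 to 1.85), 72.0 CPM for Paxbp1 (41.3 to 51.5), 515 CPM for Son (366 to 415), 24.4 CPM for Donson (16.7 to 18.7), 15.8 CPM for Qtrt2 (12.1 to 12.9) and 48.2 CPM for Cpsf1 (39.9 to 42.9). This library also had the largest share of counts in long noncoding and TEC genes among Dp16 mice, at 2.03%. Tnxb stood at 22.4 CPM in WT replicate 4 (other WT mice 13.3 to 16.2), the WT library with the largest such share, at 2.06%.

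In single genes, Gm15966 stood at 1.42 CPM in Dp16_2xIFNRs replicate 2 (others 2.86 to 3.18), Olig2 at 33.8 CPM in Dp16 replicate 1 (others 44.1 to 49.0), 4932438H23Rik at 1.38 CPM in WT replicate 6 (others 2.56 to 3.16) and Wrn at 11.6 CPM in WT replicate 5 (others 13.5 to 13.9).

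Choroid plexus markers were nearly missing in 1 library of each group. Their mean log2 level relative to the Dp16 mean was -2.73 in Dp16_2xIFNRs replicate 5 (others 0.56 to 1.04), -3.28 in Dp16 replicate 6 (others 0.15 to 1.21) and -3.36 in WT replicate 6 (others 0.77 to 1.31). Cytosolic ribosomal genes stood at -0.31 in Dp16 replicate 4 (others -0.01 to 0.16).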

How the results depend on the processing

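EdgeR called 0 genes outside the segment; the count was 2 with DESeq2, 10 with no filter on low counts, and 0 to 1 when each library was left out (1 without Dp16_2xIFNRs replicate 1, Gm16378). The cause was not tested. With the replicate block, 4 receptor genes and 0 others were called, although it is not known whether the numbers pair the mice. Leaving out each library gave 3 to 4 receptor calls. No result reversed its direction past the test. Ifnar2 lost its call in 2 alternatives and Il10rb gained one in 6, and Tnxb and Muc3a gained one with no filter. The number of genes at an unadjusted p under 0.05, 1986, was 523 with the share of noncoding and TEC counts in the model and 921 to 3343 when each library was left out, lowest without Dp16_2xIFNRs replicate 2 and highest without Dp16_2xIFNRs replicate 1. Of the list medians, that of type I interferon-stimulated genes ran between -0.05 and 0.10, and that of peripheral leukocyte genes was -0.25 without the 3 libraries lowest in choroid plexus, against 0.15 with them. With the share of noncoding and TEC counts in the model, the median of astrocyte markers was -0.01, against -0.09 without it, and that of pericyte and smooth muscle markers was -0.02, against 0.16. Low genes have wide intervals at this depth, which covers counting error and the spread between 5 and 6 mice.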

Other observations

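Npas4, a transcription factor switched on by neuronal activity, stood at 13.9, 10.4, 10.8, 15.2 and 9.56 CPM in Dp16_2xIFNRs mice, against 5.12, 6.82 and 10.7 CPM (lowest, median, highest) in Dp16 mice and 5.01 to 15.4 CPM in WT mice. Its log2 fold change of 0.75 (unadjusted p = 0.00396) did not pass (edgeR adjusted p = 0.433), and 1 Dp16 mouse lay among the Dp16_2xIFNRs values. Immediate early genes as a list had a median of 0.05, with 19 of 26 higher and 0 called by edgeR, 1 higher and 1 lower at an unadjusted p under 0.05. That median was -0.09 without Dp16_2xIFNRs replicate 4 and 0.12 without Dp16_2xIFNRs replicate 1, so its sign turned with single mice.

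Igkc, an antibody light chain made by plasma cells, stood at 2.75 and 7.04 CPM in Dp16_2xIFNRs replicates 1 and 3 and at 0.289 to 0.413 CPM in the other 3, against 0 to 0.817 CPM in Dp16 mice and 0.0639 to 2.47 CPM in WT mice (edgeR adjusted p = 0.438). The high values came from single mice, 1 of them in the WT group.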
